A study of Delphinium anthriscifolium with 89 samples.

Results

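The features described here are the stamen transcripts of *Delphinium anthriscifolium* whose highest level among all organs and stages was in stamens at floral stage S12. They number 184 of the 32115 features counted. Each had its highest group in stamens S12, a value of at least 11 there and at least 4 times the value of every other organ. The value of a group was the replicate median in CPM plus 1, where CPM is the count scaled to a library total of 1000000, and the value of an organ was its highest stage group. A maximum of 200 features had been set, and all 184 that passed were kept. Because these levels chose the members, stamens S12 against other stamen stages and stamens against other organs are given below as descriptions, with no test.

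Stamens are the pollen-bearing organs of a flower. In the anther, the tapetum surrounds the developing microspores, supplies them with nutrients and lipids for the pollen wall, and then breaks down. The microspores divide and mature into pollen, the anther opens and the filament lengthens. Transcripts that appear for a single anther stage are well known from these steps in other plants. The deposited files carry assembly IDs of the form DN32287_c0_g1_i1|m.11217 and do not pair them with gene names, so no function is given to any member and no sequence is printed.

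RNA sequencing was done on total RNA, and counts per feature were deposited for 89 libraries. Of these, 85 were wild type (WT), from stamens, carpels, dorsal spurred petals, lateral non-spurred petals, dorsal spurred, lateral non-spurred and ventral non-spurred sepals, bracts and leaves. The flower organs were taken at S9 with 2 libraries a group and at S10, S12 and S16 with 3 a group, and bracts and leaves have 4 libraries each. The other 4 libraries came from a virus-induced gene silencing experiment, 2 titled ans-lmi1 and 2 titled ans. The series describes them as petals at S12, whereas their tissue label names lateral non-spurred sepals. The genotype label reads LMI1 knockdown for ans-lmi1 replicate 1, LMI2 knockdown for replicate 2 and ans for both ans libraries, whose files carry the header MOCK. Organs, stages and groups are therefore those of the titles. No label gives the age of the plants, says how many plants were pooled or says that replicates came from separate plants. The p-values therefore measure only how far these libraries differ from one another, and that spread may be technical.

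Library totals ran between 4201867 and 22100119 counts, with a median of 8555603, and 3 counts correspond to 0.136 to 0.714 CPM. Fewer than 19000 features had a count in 21 libraries, among them both stamen libraries of S9, S10 replicate 1 and S16 replicate 3. Within stamens S10, replicate 2 was the highest library for 146 of the 184 members (79.4%), against 22.01% of 11795 other features. Outside stamens, dorsal petals S12 replicate 1 and lateral petals S12 replicate 2 carried far more of the members than their replicates did, and results that rest on them are given with and without them. For stamen identity the files offer no named marker gene, so the organ label was not checked. The members' own levels cannot check it, since the rule chose them by that label.

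The 184 members together took 6.98%, 6.73% and 6.99% of all counts in the 3 stamen libraries of S12, a mean of 6.90% ± 0.149 (SD, n = 3). At S9 they took 0.376% and 0.419%. At S10 they took 1.00%, 1.82% and 0.993%, and at S16 0.550%, 0.659% and 0.733%. The S12 libraries stood apart from all others, and S10 was the only other stage at which a library passed 1%. In a bulk sample, more cells of a type and more RNA per cell cannot be told apart.

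**Figure D1:**
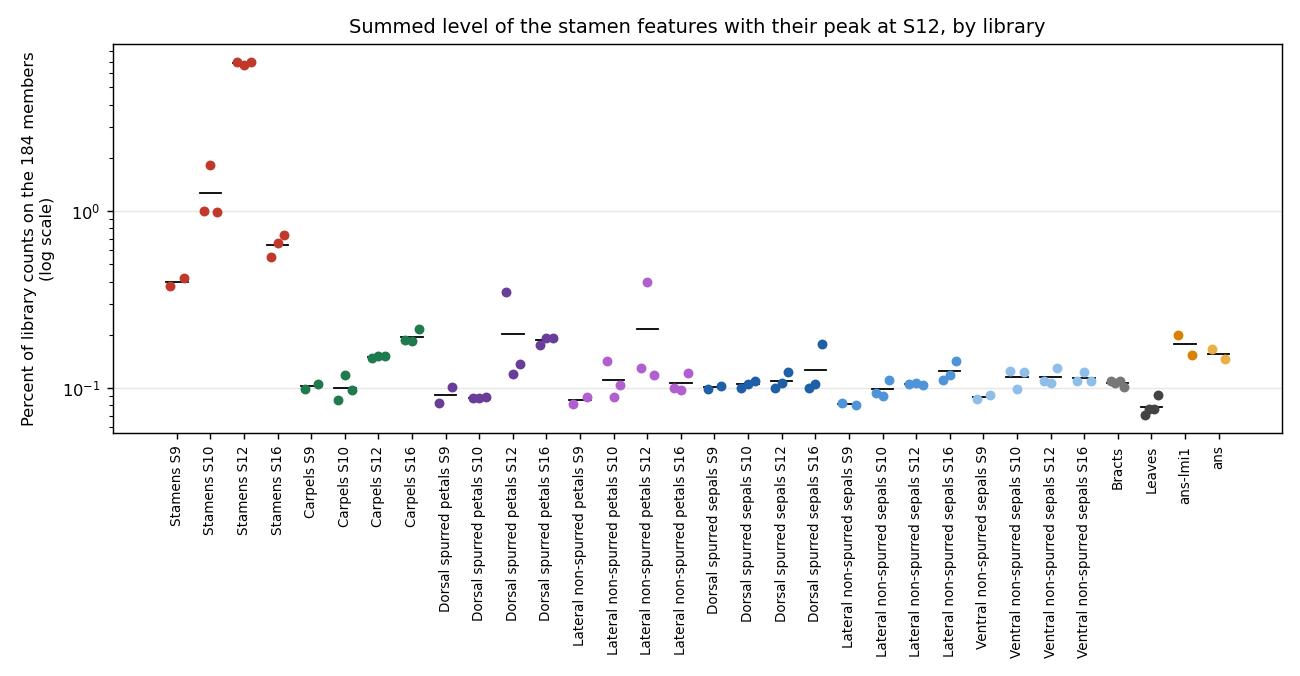
Percent of each library's counts that falls on the 184 members (log scale), by group, with points for libraries and a bar for the group mean. The 3 stamen libraries of S12 lie between 6.73% and 6.99%, and no library outside stamens passes 0.397%.

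Outside stamens the same features took 0.0703% to 0.397% of counts. The lowest group was leaves, with 0.0784% ± 0.00906 (SD, n = 4). Among the other floral organs, carpels held 0.196% ± 0.0170 at S16 and 0.151% ± 0.00170 at S12 (SD, n = 3 each). Dorsal petals S16 held 0.186% ± 0.00937 and lateral petals S16 0.107% ± 0.0129 (SD, n = 3 each). Group means in sepals ran between 0.0813% and 0.127%.

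Members ranged widely in level. The S12 median had a lowest value of 10.2 CPM, a median of 96.8 CPM and a highest of 22620 CPM. The middle part of the set, between the quartiles, lay between 31.3 and 272 CPM. There were 90 members at 100 CPM or more, 8 of them at 1000 CPM or more, and 43 under 30 CPM. CPM is not divided by transcript length, so these levels do not rank one transcript against another in number of molecules.

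A single feature supplied much of the summed level. DN32287_c0_g1_i1|m.11217 had no count at S9 in either stamen library, 192, 1457 and 150 CPM at S10, 22620, 16000 and 24470 CPM at S12, and 208, 226 and 268 CPM at S16. The 3 libraries of S12 were all above the 8 other stamen libraries. It took 32.4%, 23.8% and 35.0% of all member counts in the 3 S12 libraries. The 20 most abundant members together took 66.9%, 64.0% and 69.1%.

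The second most abundant member was also the one with the largest ratio to the next organ. DN34630_c0_g1_i1|m.15066 had no count at S9, 158, 435 and 143 CPM at S10, 3797, 5216 and 4727 CPM at S12, and 13.4, 9.19 and 0 CPM at S16. Its stamen value was 2186 times that of dorsal petals, the next organ. DN47583_c0_g2_i2|m.100353 had the next largest ratio, 312, with 483, 700 and 721 CPM at S12 and no count in the 3 S16 libraries. In stamens S10 it had 207, 212 and 112 CPM, so it was present before S12 and not detected after it.

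The ratio of stamens to the next organ was 11.4 at the median, with quartiles of 6.81 and 21.2. It reached 10 for 107 members, 50 for 20 and 100 for 8. The members just inside the limit were DN46487_c1_g2_i1|m.84149 at 4.00 and DN37210_c0_g2_i1|m.19249 at 4.03. Just outside were DN46361_c3_g1_i3|m.82132 at 3.93 and DN42916_c1_g1_i2|m.39338 at 3.88. On level, DN33055_c0_g2_i1|m.12231 at 10.2 CPM and DN22523_c0_g1_i1|m.6005 at 10.7 CPM were the last inside. DN45451_c0_g1_i2|m.67541 at 9.41 CPM and DN36138_c0_g1_i1|m.17133 at 9.37 CPM passed on ratio and missed the level. Of the 1354 features with their highest group in stamens S12, 1012 reached a value of 11 and 18.2% of those were members.

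The members belong to 182 assembly genes, and 18.5% of them lie in a gene with more than 1 feature, against 29.3% of all features. There were 27 members that share an assembly cluster with at least 1 other member, in 13 clusters, and such features can share sequence and reads. Taken member by member, the assembly genes held 47 other features as partners. Members counted there as each other's partner were DN48031_c0_g1_i3 and DN48031_c0_g1_i7, and DN45058_c2_g2_i1 and DN45058_c2_g2_i2. Of all these partners, 40 reached a group median of 1 CPM. Highest in stamens S12 were 13 of them, those members included, in another stamen stage 15 and outside stamens 12. For a member with such a partner, the level of the single feature depends on how reads were divided within the gene. This bears on its stage course in stamens as well as on its ratio to other organs. A partner highest outside stamens was found for 10 members. DN40698, DN47489, DN46181_c0_g2_i3 and DN47295_c1_g1_i4 are among the 10.

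Levels of the members at S9, S10 and S16 differed from one member to the next. Relative to S12, the median member stood at 0.0671 at S9, 0.216 at S10 and 0.0729 at S16, on the scale of median CPM plus 1. S9 lay below S10 in 152 members and above it in 28. S16 lay below S10 in 125. Under 10% of the S12 value were 119 members at S9, 54 at S10 and 109 at S16.

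Sorting members by whether S10 and S16 reached 10% of S12 gave 4 courses, a sorting made from the same values and carrying no test. In 35 members both stages stayed under 10%, with median levels of 1.13 CPM at S9, 5.25 at S10, 108 at S12 and 1.74 at S16. These 35, DN32287 among them, supplied 3.81%, 3.20% and 3.996% of counts in the 3 S12 libraries. In 74 members S10 reached 10% and S16 did not, with medians of 8.22, 34.0, 110 and 1.17 CPM through the 4 stages. In 19 members S16 reached 10% and S10 did not, with medians of 0.173, 1.08, 87.8 and 21.3 CPM. In the remaining 56 both did, with medians of 8.79, 16.1, 63.7 and 19.8 CPM. The ratio to the next organ was 18.2 at the median in the first course and 7.58 in the last.

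**Figure D2:**
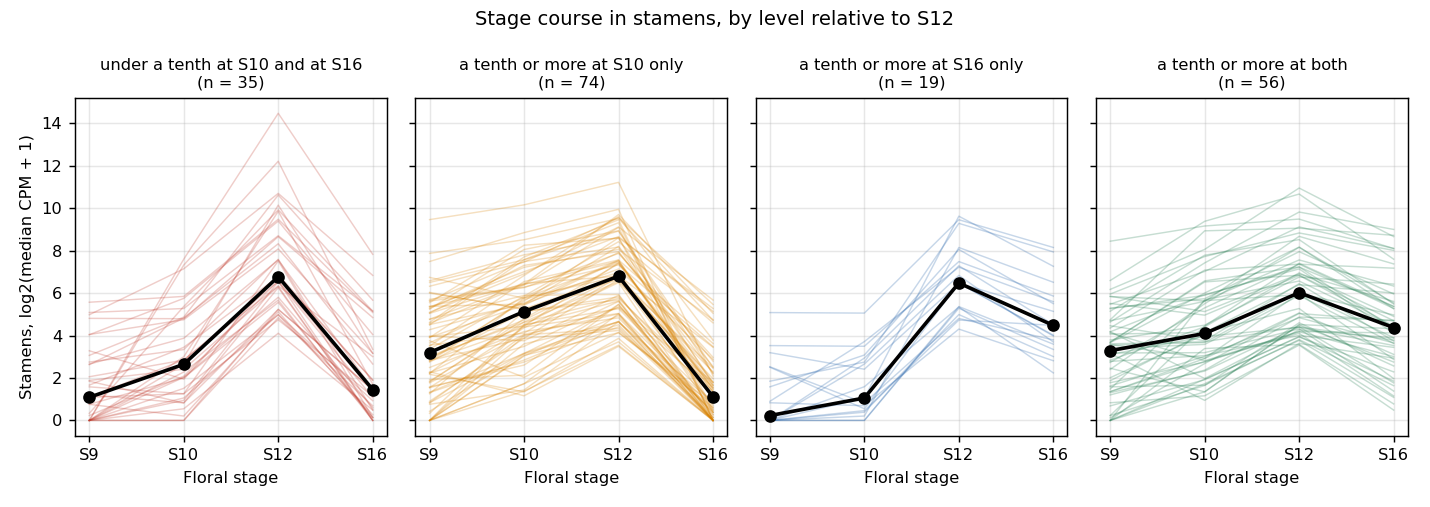
Levels of the 184 members in stamens, as log2(median CPM + 1), at S9, S10, S12 and S16, in 4 panels by whether S10 and S16 reached 10% of the S12 value; thin lines are members and the black line is the panel's median. The panels hold 35, 74, 19 and 56 members, and the median line falls back by S16 in the first and second but stays higher in the other two.

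The extremes of these courses came from a few members. DN41065_c0_g1_i3|m.30012 had 261 and 95.7 CPM at S9, 570, 459 and 280 CPM at S10, 287, 1296 and 984 CPM at S12, and 0, 0.204 and 0 CPM at S16. Its S12 replicate 1 lay below 2 of the S10 libraries, and S16 was at or near the limit of detection. DN44052_c0_g1_i1|m.50312 had 21.6 and 29.8 CPM at S9, 216, 888 and 487 CPM at S10, 450, 531 and 749 CPM at S12, and 420, 439 and 173 CPM at S16. S10 overlapped both S12 and S16 in this feature, S16 lay below S12, and S9 lay below all 3. DN39892_c0_g2_i1|m.26067 likewise overlapped between S12, at 39.1, 98.8 and 60.1 CPM, and S10, at 91.0, 50.2 and 58.3 CPM.

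Some members barely exceeded another stage and hold their place by the median alone. DN10242_c0_g1_i1|m.2108 had 17.2, 5.75 and 18.3 CPM at S12 and 16.4, 13.3 and 31.4 CPM at S16. DN31282_c0_g2_i1|m.11034 had 29.2, 15.9 and 28.2 CPM at S12 and 23.8, 25.3 and 103 CPM at S16. In both, S16 replicate 3, a library of few features, was the highest stamen library. DN47929_c4_g1_i1|m.108409 had 15.4, 17.6 and 17.1 CPM at S12, against 17.4 and 15.4 CPM at S9. DN39516_c0_g1_i1|m.25208 had 23.4, 15.7 and 18.3 CPM at S12, against 2.75 and 31.5 CPM at S9. Over the whole set, the 3 S12 libraries lay above the 8 other stamen libraries in 113 members. They lay above all 74 WT libraries outside stamens in 174, and above both kinds in 112. The rule chose the members by these levels, so the counts only describe them. They were not made over other features and do not set the members apart.

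Replicates of S12 agreed on the sum and differed on single members. Without the most abundant member, DN32287, the sums were 4.72%, 5.13% and 4.55% of counts in replicates 1, 2 and 3, and differed more. The highest S12 library was under 2 times the lowest in 54.4% of members, against 83.7% of 11381 other features with a value of at least 11 in that group. The highest was replicate 1 in 78 members, replicate 2 in 60 and replicate 3 in 46. The widest spread was in DN46031_c0_g1_i2|m.77259, with 129, 8.41 and 25.5 CPM, and next in DN46181_c0_g2_i3|m.78604, with 4.12, 31.9 and 53.8 CPM. DN46031_c0_g1_i1, the partner of the former, had medians of 469 CPM in stamens S12 and 1412 CPM in stamens S16. How reads were divided between that pair was not tested.

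The highest replicate differed with the stage course. Of the 19 members that stayed up at S16 but not S10, 16 were highest in S12 replicate 1. Of the 74 that were up at S10 but not S16, replicate 1 was highest in 17, replicate 2 in 32 and replicate 3 in 25. Features chosen by the same rule for a peak at S10 took 1.30%, 2.18% and 8.30% of counts in S12 replicates 1, 2 and 3. Those chosen for a peak at S16 took 1.13%, 0.485% and 0.634%. Replicate 3 was highest for the S10 set and replicate 1 for the S16 set. The part of this in the members' spread was not tested.

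The order of S9 and S10 was not set by the rule, and it was tested with edgeR's quasi-likelihood test over all features. All 184 members passed the filter on low counts, but only 166 did so with S9 and S10 alone in the fit, so the share of members below is no support for a difference from other features. At adjusted p under 0.05, 7 members were higher at S10 than at S9 (3.80% of members) and 0 were lower, beside 0.22% higher and 0.318% lower of all 20420 features tested. The log2 fold change of S10 over S9 was 2.28 at the median of members and 0.195 at the median of all features, and was positive in 169 of 184. In all 7 the S10 libraries lay above both S9 libraries, which was not counted over all called features and so does not set the members apart. With S9 and S10 alone, 1 of the 166 was higher (0.602%), beside 0.0596% of all features. None was called with the replicate block, without S9 replicate 1 or without S10 replicate 3, and in those fits 0 of all features were called in either direction. Without S10 replicate 2, the library high for most members, 1 of 184 was higher, beside 1 of all 20233 features. Without S9 replicate 2, which leaves S9 with 1 library, the median log2 fold change was 4.69 in members and 0.618 in all features.

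DN32287 had 192, 1457 and 150 CPM at S10 and no count at S9, and was at least 2510-fold higher at S10 against a floor of 3 counts over the S9 group (adjusted p = 0.0203, edgeR). DN34630 had 158, 435 and 143 CPM at S10 and no count at S9, and was at least 976-fold higher (adjusted p = 0.0411, edgeR). Both features were plainly present in each S10 library and undetected in both S9 libraries. Much of these folds rests on S10 replicate 2, without which they are at least 632-fold for DN32287 and at least 560-fold for DN34630. Without S9 replicate 1 or 2 the floor of 3 counts falls on fewer counts, and they are at least 1290-fold or 1220-fold for DN32287 and 502-fold or 474-fold for DN34630. The p-values rest on 3 libraries against 2. The call of DN32287 was lost in 4 of 10 alternatives, with adjusted p up to 0.12, and that of DN34630 in 6 of 10, with adjusted p up to 0.262. Leaving out S9 replicate 1 or S10 replicate 3 lost both, and leaving out S10 replicate 1, S10 replicate 2 or S9 replicate 2 lost DN34630.

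Outside stamens, no member was without a count in every WT library. A group median of 1 CPM or more was reached somewhere by 150 members and 10 CPM or more by 71, whereas 34 stayed under 1 CPM in every group. The next organ was carpels for 56 members, dorsal petals for 41, lateral petals for 20, a sepal type for 51, leaves for 10 and bracts for 6. Next groups at S12, the stage of the stamen peak, were found for 28 members, against 60 at S9, 16 at S10 and 64 at S16. The S9 groups have 2 libraries, many of few features, so a single library can set their value.

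**Figure D3:**
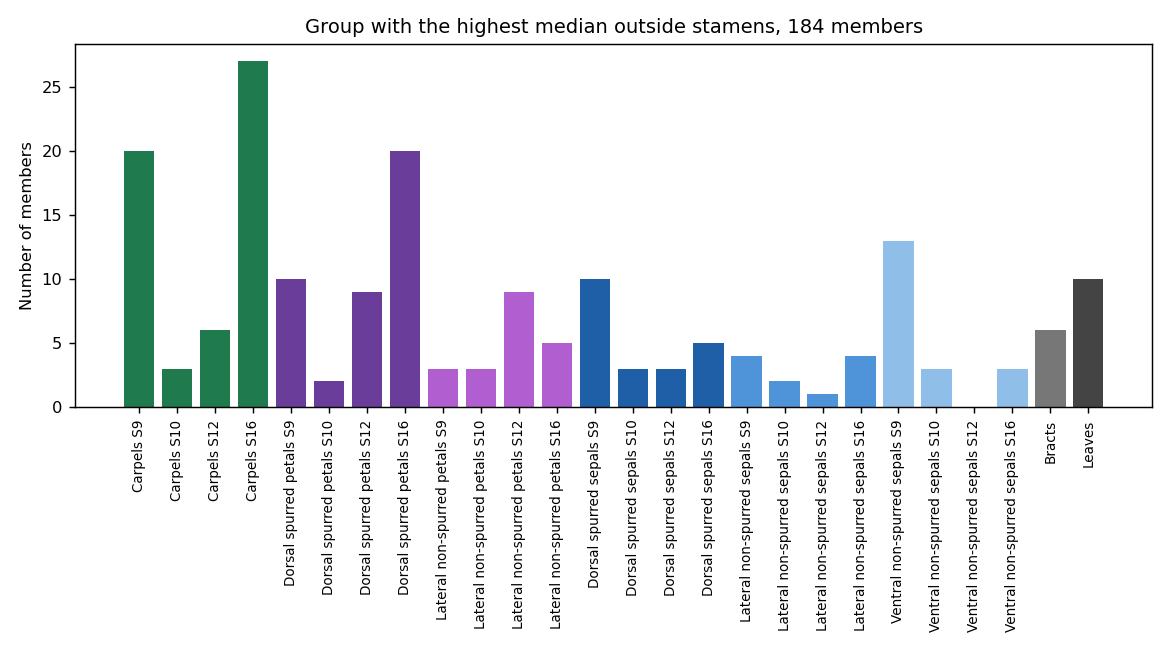
Number of the 184 members by the WT group outside stamens in which their median was highest. Carpels S16 with 27 members, carpels S9 with 20 and dorsal petals S16 with 20 are the tallest bars.

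The member with the highest level outside stamens was DN47472_c0_g1_i3|m.99075, with 1211, 2309 and 1970 CPM in stamens S12 and 395, 578 and 465 CPM in dorsal petals S16. It was present in every organ, and leaves averaged 162 ± 47.2 CPM (SD, n = 4). DN46648_c1_g1_i1|m.87181 was the next, with 530, 727 and 799 CPM in stamens S12 and 139, 145 and 202 CPM in carpels S16. Stamens S16 lay below all of these, at 20.9, 25.3 and 34.7 CPM. In both, the stamen S12 libraries did not overlap with the other organ.

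Petals at S12 held the libraries outside stamens that stood apart most for the members. In dorsal petals S12 the members took 0.351%, 0.121% and 0.137% of counts, and in lateral petals S12 0.131%, 0.397% and 0.118%. Dorsal replicate 1 was above both other replicates in 157 of 184 members (85.3%), against 32.4% of 18104 other features at 1 CPM or more. Lateral replicate 2 was above both others in 163 members (88.6%), against 37.2% of 18170 other features. A count was present for 180 members in dorsal replicate 1 and 181 in lateral replicate 2, against 115 to 140 in the other 4 libraries. Carpels S12 had no such library, with 0.149%, 0.152% and 0.151% of counts on the members.

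The excess was set beside the stamen level in the 92 members whose mean in stamens S12 was 100 CPM or more. In dorsal replicate 1 it came to 2.75% of the stamen S12 level at the median, with quartiles of 1.57% and 4.61%. In lateral replicate 2 it came to 3.14%, with quartiles of 0.966% and 6.93%. DN32287 had 559, 4.81 and 11.2 CPM in dorsal petals S12 and 1.54, 507 and 2.99 CPM in lateral petals S12. DN34630 had 158, 0 and 0.133 CPM in dorsal petals S12 and 0, 53.0 and 0 CPM in lateral petals S12. The stamen set with its peak at S16 took 0.151%, 0.126% and 0.130% of counts in dorsal petals S12 and 0.134%, 0.401% and 0.138% in lateral petals S12. Lateral replicate 2 was thus also high for that set, and dorsal replicate 1 only slightly. What put these counts in the 2 petal libraries was not tested.

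**Figure D4:**
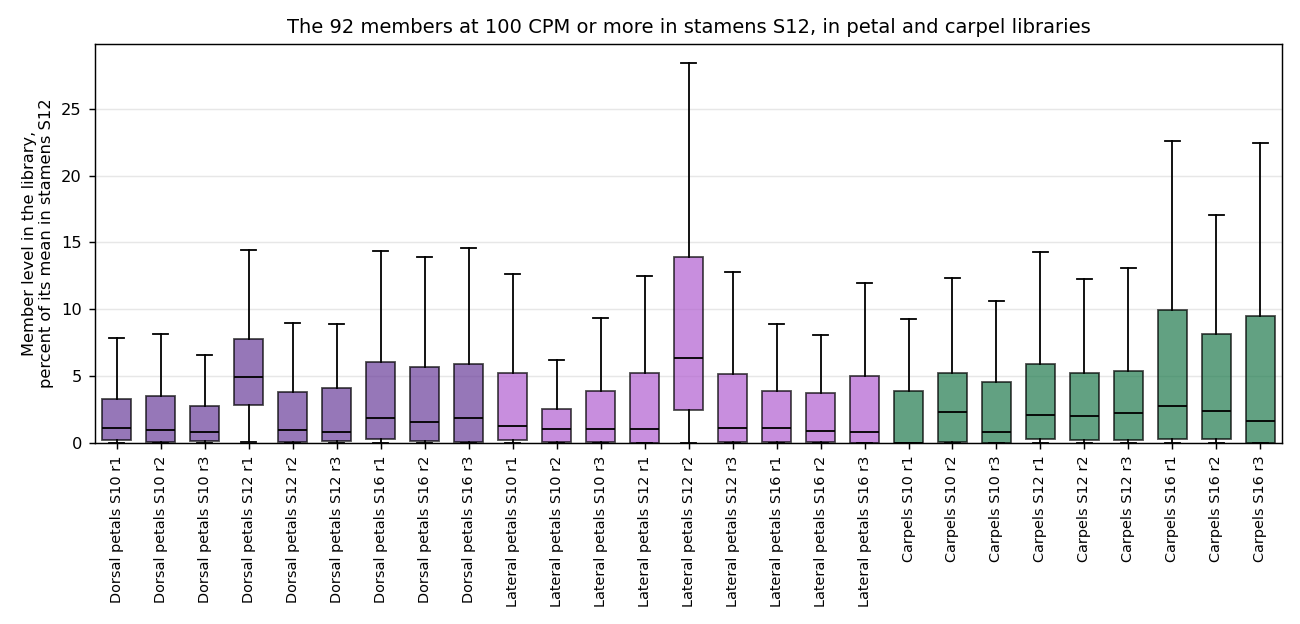
Levels of the 92 members at a mean of 100 CPM or more in stamens S12, as a percent of that mean, in each petal and carpel library of S10, S12 and S16; boxes are quartiles with the median, whiskers reach to 1.5 times the box and points beyond are not drawn. Dorsal petals S12 replicate 1 and lateral petals S12 replicate 2 lie above their replicates, with a median excess of 2.75% and 3.14%.

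Petals at S12 were compared with petals at S10 over both petal types, with 6 libraries at each stage. Of 158 members that passed the filter, 45 were higher at S12 (28.5%) and 4 were lower (2.53%), beside 13.5% higher and 12.8% lower of all 21834 features (edgeR, adjusted p under 0.05). The median log2 fold change of S12 over S10 was 1.46 in members. Without both petal libraries that stood apart, 135 members passed the filter, 12 were higher (8.89%) and 13 lower (9.63%), beside 8.30% and 8.37% of all features, and the median was -0.11. The 12 were among the 45. Without dorsal replicate 1 alone 21 of 141 were higher and 6 lower, beside 2166 and 2143 of all 21747 features. Without lateral replicate 2 alone 20 of 141 were higher and 5 lower, beside 2449 and 2350 of all 21675 features.

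Petals at S16 against S12 gave the reverse picture with the same dependence. Of the 158 members, 10 were higher at S16 (6.33%) and 50 lower (31.6%), beside 21.4% higher and 24.8% lower of all features. Without both libraries 31 of 135 were higher (23.0%) and 22 lower (16.3%), beside 18.8% and 21.7% of all features. The median log2 fold change of S16 over S12 was -1.28 with them and 0.74 without them. Without dorsal replicate 1 alone 17 of 141 were higher and 28 lower, beside 4403 and 5128 of all 21747 features. Without lateral replicate 2 alone 17 of 141 were higher and 25 lower, beside 4297 and 4924 of all 21675 features. All 22 lower without both libraries were among the 50 lower, and 9 of the 31 higher were among the 10. Both petal comparisons share the S12 libraries.

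A member that changed in petals with and without those libraries was DN40698_c0_g1_i2|m.28638. In petals S12 it had 9.87 CPM in the lowest, 49.4 at the median and 138 in the highest of 6 libraries, against 0, 0.936 and 6.93 CPM in petals S10. The stages did not overlap, and the log2 fold change of S12 over S10 was 5.09 ± 0.71 (SE; adjusted p = 4.39e-05, edgeR). In petals S16 it had 0 to 0.228 CPM, 3 counts in 6 libraries. The ratio of S12 to S16 was 1420, with an exact 95% interval of 485 to 6880 that covers counting error only (adjusted p = 2.32e-07, edgeR). Without both libraries that stood apart, the log2 fold change was 4.59 ± 0.82 for S12 over S10 (adjusted p = 0.00103) and -9.64 ± 1.16 for S16 over S12 (adjusted p = 3.87e-06).

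Another feature of the same assembly gene, DN40698_c0_g1_i3, bears on these values. It is no member, and had 354 CPM at the median of petals S12, 115 in petals S10 and 34.9 in petals S16, against 8.27 CPM in stamens S12. How reads were divided between the pair was not tested. Summed over both features, petals had 60.6 to 207 CPM at S10, 139.5 to 740 at S12 and 13.5 to 76.4 at S16.

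The member itself had its highest stage at S12 in each floral organ. In stamens it had 0 and 0 CPM at S9, 0, 17.9 and 6.997 CPM at S10, 1063, 922 and 495 CPM at S12, and 2.65, 2.27 and 0 CPM at S16. In carpels it had 0, 1.43 and 0 CPM at S10, 48.0, 31.9 and 18.3 CPM at S12, and 7.25, 4.10 and 0 CPM at S16. S12 lay above S10 and S16, which overlapped each other, but neither carpel comparison passed the test (S12 over S10 log2 fold change 5.97 ± 1.82, adjusted p = 0.172, edgeR; S16 over S12 -2.997 ± 1.53, adjusted p = 0.725). In leaves it averaged 0.474 ± 0.597 CPM and in bracts 0.970 ± 0.659 CPM (SD, n = 4 each).

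Other members named by the petal stage comparisons were lower in level. DN47489_c4_g1_i3|m.99252 had a count in all 6 petal libraries of S12, 2.26, 0.181 and 0.509 CPM in dorsal and 1.13, 9.59 and 0.122 CPM in lateral petals, and none in the 6 of S10. Its partner DN47489_c4_g1_i6 had medians of 302 CPM in petals S12 and 227 CPM in petals S10, and the division of reads between them was not tested. The member was at least 42.1-fold higher at S12 over the floor of 3 counts (adjusted p = 0.00528, edgeR). Of the 178 counts at S12, 24 are left without both libraries that stood apart, and it is then at least 8.87-fold higher (adjusted p = 0.0412, edgeR). Without lateral replicate 2 alone it is at least 18.3-fold higher. DN41065 had 0.471 ± 0.281 CPM at S12 and 1.97 ± 0.574 CPM at S10 (SD, n = 6 each; log2 fold change -2.14 ± 0.76, adjusted p = 0.0445, edgeR), a call that stayed in 5 of 19 alternatives. DN45692_c0_g2_i1|m.71320 had 6.52, 11.3 and 15.5 CPM (lowest, median and highest) at S16 and 1.15, 2.30 and 4.59 CPM at S12, without overlap (log2 fold change 2.54 ± 0.36, adjusted p = 7.4e-06, edgeR). DN47607_c0_g2_i1|m.102433 had 0, 0.0491 and 0.661 CPM at S16 and 0.865, 2.58 and 16.6 CPM at S12 (log2 fold change -4.60 ± 1.08, adjusted p = 0.00145, edgeR). The last 2 calls held in all 19 alternatives.

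For the most abundant stamen feature, the petal result turned on those libraries. DN32287 had 101, 56.1 and 74.6 CPM in dorsal petals S16 and 68.6, 46.6 and 33.9 CPM in lateral petals S16. At S12 the 4 libraries other than the 2 that stood apart had 1.54 to 11.2 CPM, and the 2 had 559 and 507 CPM. The log2 fold change of S16 over S12 was -1.12 ± 1.07 with all libraries (adjusted p = 0.421, edgeR) and 4.28 ± 0.78 without the 2 (adjusted p = 0.000212). For DN44052 the log2 fold change of S16 over S12 was 2.21 ± 1.06 with all libraries (adjusted p = 0.0945, edgeR) and 7.15 ± 1.17 without the 2 (adjusted p = 6.74e-05).

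Dorsal and lateral petals were compared within a stage. At S12, 2 of 158 members were higher in dorsal petals (1.27%) and 0 lower, beside 0.921% higher and 0.811% lower of all features. Of the 158 members, 15 had an unadjusted p under 0.05, beside 1855 of all 21834 features. DN43262_c0_g1_i1|m.42015 had 31.9, 33.6 and 33.8 CPM in dorsal petals S12, against 6.92, 4.94 and 4.49 CPM in lateral petals S12. The petal types did not overlap, the log2 fold change was 2.58 ± 0.32 (adjusted p = 0.000147, edgeR), and the call was lost only when all WT libraries shared 1 fit (adjusted p = 0.0573). Without the 2 libraries that stood apart the log2 fold change was 2.49 ± 0.43 (adjusted p = 0.00765). At S16 it had 17.0, 15.97 and 27.9 CPM in dorsal petals, against 10.2, 8.37 and 9.27 CPM in lateral petals (log2 fold change 1.13 ± 0.31, adjusted p = 0.0314, edgeR).

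DN44220_c0_g1_i1|m.51701 had 42.3, 32.95 and 47.6 CPM in dorsal petals S12, against 19.1, 23.9 and 21.7 CPM in lateral petals S12 (log2 fold change 0.92 ± 0.22, adjusted p = 0.0350, edgeR). The types did not overlap, and the call stayed in 5 of 13 alternatives, lost without any 1 of dorsal replicates 1 and 3 and lateral replicates 1, 2 and 3, with adjusted p between 0.00161 and 1 over the alternatives.

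At S16, 13 of 158 members were higher in dorsal petals (8.23%) and 1 was lower (0.633%), beside 4.13% higher and 1.69% lower of all features. The groups did not overlap in 12 of the 13 and in the 1. This was not counted over all called features, so it does not set the members apart. Leaving out 1 library left between 5 and 11 members called in all, beside 604 to 972 higher and 208 to 369 lower of all features. The replicate number paired the petal types, and with it as a block 12 were higher (7.59%) and 1 lower (0.633%), beside 6.37% and 3.16% of all features. Without libraries of few features 6 of 172 were higher (3.49%) and 2 lower (1.16%), beside 5.54% and 2.82% of all features. The share of members higher in dorsal petals was thus above that of all features in the fit of all petal libraries, and below it without those libraries.

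The 2 largest dorsal changes at S16 came from a pair of members of the same assembly cluster. DN47295_c1_g5_i1|m.96310 had 5.39, 10.6 and 8.19 CPM in dorsal petals S16 and no count in lateral petals S16, at least 76.0-fold higher (adjusted p = 0.0454, edgeR). DN47295_c1_g1_i4|m.96305 had 17.9, 22.8 and 44.2 CPM in dorsal petals S16, against 0.0945, 0.0113 and 0 CPM in lateral petals S16. The ratio was 715, with an exact 95% interval of 128 to 28300 for counting error only (adjusted p = 0.0171, edgeR). As a pair from 1 cluster they are not independent observations. In stamens S12 they had 264, 275 and 68.7 CPM, and 1654, 1839 and 1408 CPM.

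The first call stayed in 3 of 12 alternatives and was lost without any 1 of the 6 petal libraries of S16, where it was at least 47.0-fold higher without lateral replicate 1 and 44.6-fold without lateral replicate 2, and under the replicate block (adjusted p = 0.0817, edgeR). The second stayed in 7 of 12 and was lost without any 1 of the lateral libraries. Its ratio was 420 without lateral replicate 2, and without lateral replicate 1 it was at least 148-fold higher. DN37652_c0_g1_i1|m.20223 was the 1 member lower in dorsal petals S16, with 2.91, 2.35 and 5.08 CPM, against 7.75, 9.33 and 50.5 CPM in lateral petals S16 (log2 fold change -2.57 ± 0.73, adjusted p = 0.0420, edgeR). Its call stayed in 4 of 12 alternatives and was lost under the replicate block (adjusted p = 0.0627, edgeR) and without any 1 dorsal library. It was also lost without lateral replicate 3, the library with 50.5 CPM, where the log2 fold change was -1.42.

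**Figure D5:**
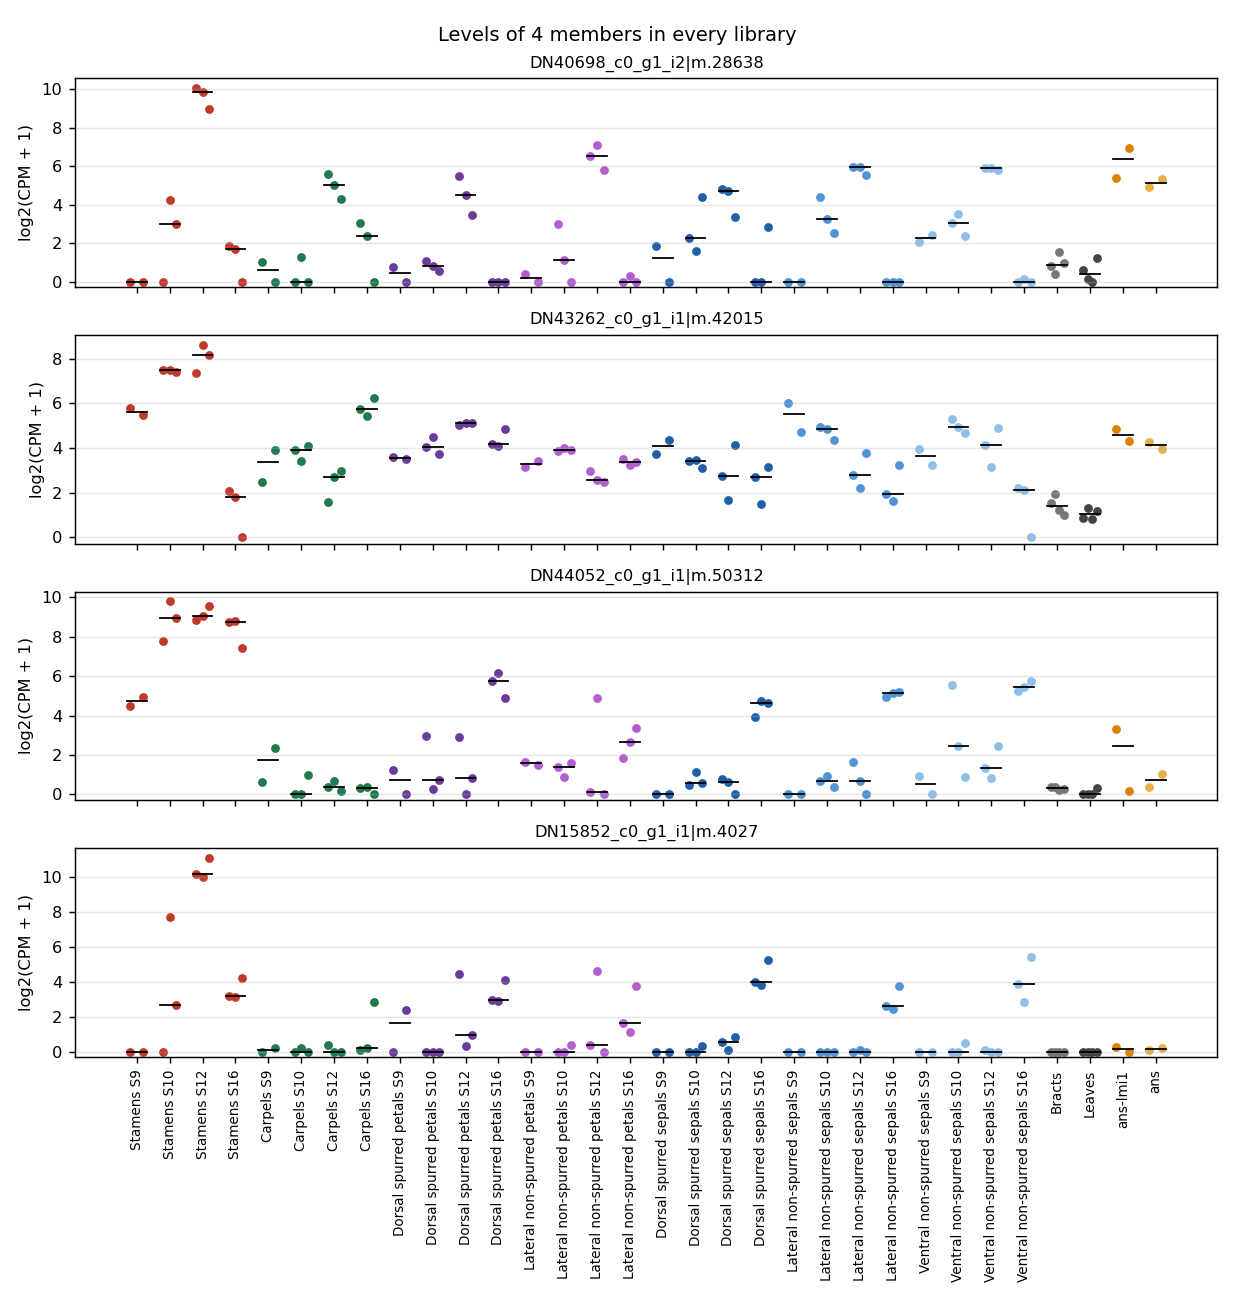
Levels of 4 members in every library as log2(CPM + 1), by group, with points for libraries and a bar for the group median. DN40698 is highest at S12 in stamens, carpels, petals and sepals, DN43262 is higher in dorsal than in lateral petals S12 and in carpels S16 than in carpels S12, and DN44052 and DN15852 are higher in sepals S16 than in sepals S12.

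In carpels few members changed by the test. Of 112 members tested, 0 were higher and 0 lower at S12 than at S10, beside 0.126% higher and 0.146% lower of all 19829 features. An unadjusted p under 0.05 was found for 14 members and for 3061 of all features. DESeq2 called 6 members higher and 0 lower, beside 576 higher and 542 lower of all features. At S16 against S12, 1 member was higher (0.893%) and 0 were lower, beside 0.0555% higher and 0.0605% lower of all features. Here 18 members and 1563 of all features had an unadjusted p under 0.05. DESeq2 called 6 members higher and 1 lower, beside 262 higher and 210 lower of all features. The 1 member higher by edgeR was DN43262, with 52.8, 43.0 and 73.7 CPM in carpels S16, against 1.96, 5.58 and 6.87 CPM in carpels S12 (log2 fold change 3.71 ± 0.59, adjusted p = 0.0479, edgeR). The groups did not overlap, but the call stayed in 4 of 12 alternatives and was lost without any 1 of the 6 libraries, with adjusted p up to 0.24. Without the libraries of few features, 11 of 130 members were higher and 8 lower at S16, beside 3.01% and 2.89% of all features.

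In sepals, members were called in both directions and at shares no higher than those of all features. At S12 against S10, over 3 sepal types with 9 libraries a stage, 7 of 140 members were higher (5%) and 4 lower (2.86%), beside 5.64% higher and 5.6% lower of all 21673 features. At S16 against S12, 16 were higher (11.4%) and 13 lower (9.29%), beside 12.4% higher and 18.2% lower. Without dorsal sepals S16 replicate 3, 19 members were called in all, against 29 with it. In that fit 10 of 132 members were higher and 9 lower, beside 2519 and 3706 of all 21552 features. Whether the shares of members and of all features differ was not tested. Of the 21 libraries with few features, 10 were sepals. Without them 17 of 125 members were higher and 20 lower at S12 against S10, beside 4235 (20.1%) and 3825 (18.1%) of all 21107 features.

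Several sepal changes were large and kept their call in all 24 alternatives. DN15852_c0_g1_i1|m.4027 had 4.40, 13.0 and 41.1 CPM (lowest, median and highest) in sepals S16, against 0, 0.0828 and 0.786 CPM in sepals S12 (log2 fold change 7.27 ± 0.85, adjusted p = 2.15e-07, edgeR). In stamens it had 0 and 0 CPM at S9, 0, 205 and 5.25 CPM at S10, 1127, 1018 and 2164 CPM at S12, and 7.94, 7.55 and 17.2 CPM at S16. Sepals S16 thus reached the range of stamens S16. DN44052 had 14.3, 34.8 and 53.7 CPM in sepals S16, against 0, 0.701 and 4.49 CPM in sepals S12 (log2 fold change 5.15 ± 0.74, adjusted p = 3.08e-06, edgeR). Neither feature overlapped between the 2 stages.

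DN40698 was the largest change in the other direction, with 0, 0 and 6.25 CPM in sepals S16, against 9.14, 54.2 and 62.1 CPM in sepals S12 (log2 fold change -8.34 ± 1.00, adjusted p = 1.99e-07, edgeR). Its partner DN40698_c0_g1_i3 had medians of 33.6 CPM in sepals S16 and 894 CPM in sepals S12, so both features stood lower at S16. In sepals S10 the member had 2.04, 7.22 and 20.2 CPM, overlapping S12, and the log2 fold change of S12 over S10 was 2.37 ± 0.68 (adjusted p = 0.0220, edgeR). DN46451_c1_g1_i1|m.82538 had 0, 1.72 and 2.66 CPM in sepals S16, against 8.94, 11.3 and 13.0 CPM in sepals S12 (log2 fold change -2.77 ± 0.58, adjusted p = 0.000386, edgeR). In petals it also stood lower at S16, at 1.22, 2.12 and 3.67 CPM, against 20.2, 26.4 and 31.4 CPM in petals S12.

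Between S12 and S10 in sepals, DN40040_c0_g2_i1|m.26645 was higher at S12, with 8.28, 9.0 and 17.8 CPM, against 0.161, 3.09 and 6.49 CPM at S10 (log2 fold change 1.80 ± 0.47, adjusted p = 0.0106, edgeR). DN40784_c1_g1_i2|m.28739 was lower at S12, with 0, 1.19 and 2.46 CPM, against 2.50, 8.65 and 26.4 CPM at S10 (log2 fold change -3.03 ± 0.78, adjusted p = 0.00893, edgeR). DN43412_c0_g2_i2|m.43592 was lower at S12, with 15.8, 20.2 and 27.8 CPM, against 29.2, 37.0 and 55.5 CPM at S10 (log2 fold change -0.79 ± 0.24, adjusted p = 0.0274, edgeR). None of the 3 overlapped between stages. The first and second calls held in all 24 alternatives, and the third in 16, with adjusted p up to 0.0566.

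The silencing libraries were not used to choose the members. The 184 features took 0.199% and 0.155% of counts in the ans-lmi1 libraries and 0.167% and 0.147% in the ans libraries, within the range of petals and carpels. Of 86 members that passed the filter, 0 were higher and 0 lower in ans-lmi1 (edgeR), beside 0 of all 18757 features in either direction. An unadjusted p under 0.05 was found for 11 members and for 1373 of all features, and DESeq2 called 0 members. The median log2 fold change of ans-lmi1 over ans was 0.13 in members and 0.01 in all features. Without ans-lmi1 replicate 2, ans-lmi1 has 1 library, which is assumed to vary like the ans libraries. The median log2 fold change was then 0.52 in members and -0.01 in all features. Without ans-lmi1 replicate 1 instead, it was -0.20 in members and -0.02 in all features.

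The members highest in these libraries were DN46487, with 271 and 252 CPM in ans-lmi1 and 322 and 214 CPM in ans, and DN47472, with 176 and 150 CPM in ans-lmi1 and 175 and 220 CPM in ans. The groups overlapped in both. DN46487 also had 284, 309 and 149 CPM in stamens S12 and 121, 70.2 and 66.1 CPM in lateral petals S12, so the silencing libraries reached its stamen level. DN40698 had 40.6 and 124 CPM in ans-lmi1 and 28.8 and 39.4 CPM in ans (log2 fold change 1.29 ± 0.54, adjusted p = 0.681, edgeR). DN32287 had 13.0 and 4.50 CPM in ans-lmi1 and 1.69 and 1.81 CPM in ans (log2 fold change 2.33 ± 0.59, adjusted p = 0.599, edgeR), without overlap and without a call.

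More features passed the same rule for each of the other stamen stages. For S9, 377 features passed and the 200 kept took 12.0% ± 1.03 of counts in stamens S9 (SD, n = 2). For S10, 291 passed and 200 took 13.9% ± 3.72 in stamens S10, and for S16, 251 passed and 200 took 10.7% ± 8.82 in stamens S16 (SD, n = 3 each). The S12 set took 6.90% at S12, more than the S16 set in 2 of its 3 libraries (5.36%, 5.95% and 20.9%). The ratio to the next organ was 11.4 at the median in the S12 set, against 32.98, 22.9 and 14.0 in the sets of S9, S10 and S16. Since the maximum of 200 keeps the largest ratios, the other sets' medians are raised by it, whereas the S12 set kept all that passed. The next organ was a carpel for 30.4% of the S12 set, against 30.5%, 17.5% and 9% of those sets. It was a petal type for 33.2%, against 22%, 42.0% and 62.5%.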

How the data were processed

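Total RNA was extracted and made into libraries with commercial kits, per the labels' protocols. TopHat2 and RSEM appear in the submitters' processing notes, with no version and no stated step. For the reference, annotation and strandedness, the sources used here give nothing. The authors deposited 1 file per library, holding estimated counts that are not normalized. Features of the same gene or cluster can share reads, which makes their single values uncertain.

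The members and the features named were chosen with earlier results of these data known. Members were found by the stated rule on CPM, computed as count over column sum times 1000000. Named features are extremes of the set (level, ratio, stage ratios, replicate spread, level elsewhere, limits of the rule) and, per comparison, up to 2 called members in each direction with the largest log2 fold change, a mean of 1 CPM or more and no overlap. A few of their values in other comparisons were chosen after they were seen. Lists by gene name were not analysed here.

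After rounding, these counts were tested in R 4.3.3 by edgeR 4.0.16 (filterByExpr, TMM, robust quasi-likelihood F tests). Fits were separate for 11 stamen, 22 petal, 11 carpel, 33 sepal and 4 silencing libraries, with 1 mean per group. Petal and sepal stage comparisons average the types. Calls are at a Benjamini-Hochberg adjusted p under 0.05 over all features tested, and the SE is the log2 fold change over the square root of F. A member tested in a fit passed its filter on low counts, so counts of members tested are not of all members. The biological coefficient of variation was 0.814 in stamens, 0.474 in petals, 0.652 in carpels, 0.724 in sepals and 0.265 in the silencing libraries. The scripts were tested on simulated data. Where a group has no count, the fold is taken against a floor of 3 counts for the whole group. Where it has 1 to 3 counts, a ratio with an exact 95% interval is given. Intervals and floors cover counting error only.

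Alternatives were DESeq2 1.42.0, no filter, the replicate number as a block, only the groups compared, all WT libraries in 1 fit, no libraries under 19000 features and each replicate left out. Fits without both petal S12 libraries that stood apart were added after the data were seen. Replicate numbers were taken to pair libraries where deviations from group means correlated above 0.1 in every one of 3 or more pairs. That held only for dorsal against lateral petals, at S12 (0.13 to 0.39) and S16 (0.22 to 0.39).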

Additional observations from a re-analysis of the deposited data

Results flagged for a closer look

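Leaves and bracts have 4 libraries each, and in each organ the summed member level and 29 named features were looked at, 60 groups in all, of which 11 were at 0 throughout. A library was taken to lie far from the others when its gap was a large part of the group's range. There were 5 such cases in the remaining 49 groups. DN44220_c0_g1_i1|m.51701 had 55.0 CPM in leaf replicate 4, against 18.0, 16.2 and 21.6 CPM in the others. The remaining 4 are single low values beside 3 libraries at 0. In leaves they were 0.333 CPM for DN47583_c0_g2_i2|m.100353, 0.275 CPM for DN44052_c0_g1_i1|m.50312 and 0.25 CPM for DN47929_c4_g1_i1|m.108409, and in bracts 0.199 CPM for DN34630_c0_g1_i1|m.15066.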

How the results depend on the processing

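Of the 184 members, 161 to 184 were kept by the rule under other scalings, means, offsets and sets of libraries, 171 with counts summed per assembly gene and 167 to 170 without 1 stamen S12 library. Their share of stamen S12 counts was 7.17% with TMM and 6.85 to 6.99% without 1 replicate. For the calls by which a comparison named a feature, 305 of 376 values under an alternative kept direction and call, 71 lost the call and 0 changed direction. Values of named features without such a call are not in this tally. Among those, DN32287 in petals S16 against S12 changed direction without both petal libraries that stood apart. Where the numbers did not pair the libraries, deviations correlated between -0.28 and 0.33 over pairs, and the replicate block also lost the calls of DN32287 and DN34630 in stamens, DN41065 in petals and DN43262 in carpels. It changed no other call of a named feature than these and those in the report.

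Counts of members called moved most where few were called. S10 against S9 in stamens gave 7, against 61 with DESeq2, 12 with no filter, 0 with the replicate block, 1 with only the groups compared, 13 with all WT libraries and 0 to 6 without 1 S10 replicate. Over all features the main fit called 45 higher and 65 lower of 20420, and DESeq2 989 and 623. No filter gave 90 and 100 of 26175, the block 0 and 0, and only the groups compared 11 and 32 of 18452. All WT libraries gave 699 and 385 of 23573, and leaving out 1 S10 replicate 0 to 29 and 0 to 33. Without 1 S9 replicate, which leaves S9 with 1 library, the members' median log2 fold change was 2.07 or 4.69. Dorsal against lateral petals at S12 gave 2, against 1 with no filter, 6 with only the groups compared, 6 without libraries of few features, 0 with all WT libraries and 1 to 2 without 1 replicate. With the replicate block, 3 were called. Over all features it was 201 higher and 177 lower of 21834, and with the block 493 and 365. No filter gave 191 and 163 of 26915, and only the groups compared 605 and 582 of 19093. Without libraries of few features it was 701 and 541 of 22450, and with all WT libraries 44 and 52 of 23573. Leaving out 1 replicate gave 87 to 182 and 63 to 117. Dorsal against lateral petals at S16 gave 14, against 8 with only the groups compared, 8 without libraries of few features, 8 with all WT libraries and 5 to 11 without 1 replicate. Over all features it was 902 higher and 369 lower of 21834, and with only the groups compared 356 and 148 of 17734. Without libraries of few features it was 1243 and 632 of 22450, and with all WT libraries 345 and 120 of 23573. Leaving out 1 replicate gave 604 to 972 and 208 to 369. Petals S12 against S10 gave 49, against 25 without both petal libraries and 25 to 48 without 1 replicate. Over all features it was 2949 higher and 2791 lower of 21834, and without both petal libraries 1795 and 1810 of 21630. Leaving out 1 replicate gave 2166 to 2877 and 2143 to 2665. Carpels S12 against S10 gave 0, against 6 with DESeq2, 2 with all WT libraries and 0 to 2 without 1 replicate. Over all features it was 25 higher and 29 lower of 19829, and with DESeq2 576 and 542. With all WT libraries it was 124 and 21 of 23573, and without 1 replicate 0 to 53 and 0 to 69. Without libraries of few features S10 keeps 1 library, and the members' median log2 fold change was 0.256. Carpels S16 against S12 gave 1, against 7 with DESeq2, 2 with no filter, 0 with the block, 0 with only the groups compared, 19 without libraries of few features, 2 with all WT libraries and 0 to 1 without 1 replicate. Over all features it was 11 higher and 12 lower of 19829, and with DESeq2 262 and 210. No filter gave 20 and 24 of 25752, the block 3 and 6, and only the groups compared 49 and 6 of 18813. Without libraries of few features it was 628 and 604 of 20869, and with all WT libraries 106 and 24 of 23573. Leaving out 1 replicate gave 0 to 23 and 0 to 35. Sepals S12 against S10 gave 11, against 37 without libraries of few features, 30 with only the groups compared, 19 with all WT libraries and 6 to 12 without 1 replicate. Over all features it was 1223 higher and 1214 lower of 21673, and without libraries of few features 4235 and 3825 of 21107. Only the groups compared gave 3227 and 2941 of 19967, and all WT libraries 1689 and 1574 of 23573. Leaving out 1 replicate gave 932 to 1310 and 907 to 1252. Sepals S16 against S12 gave 29, against 19 to 34 without 1 replicate. Over all features it was 2691 higher and 3942 lower of 21673, and without 1 replicate 2418 to 3134 and 3624 to 4086. In ans-lmi1 against ans, leaving out 1 replicate leaves a group with 1 library. The members' median log2 fold change then ran between -0.20 and 0.52. Apart from the petal libraries, whose values stand in the report, the cause was not tested. S10 against S9 in stamens was not run without libraries of few features, since no S9 library would remain.

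Levels under about 1 CPM rest on few counts, and estimated counts of related features share reads.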
